A study of Mus musculus with 9 samples.

Results

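Non-cycling radial glia and astrocytes were examined in single-cell RNA-sequencing libraries of the mouse neocortex at embryonic stage E18.5. A cell was chosen when *Slc1a3*, *Fabp7* and *Aldoc* together made up at least 40 of every 10000 unique molecular identifiers (UMIs, 1 for each captured transcript), when *Slc1a3* and *Aldoc* were each detected, and when no UMI of *Top2a*, *Mki67*, *Eomes*, *Olig1*, *Gad1* or *Gad2* was present. Before this choice, any cell in which haemoglobin genes exceeded 1% of UMIs was dropped. Of 22147 deposited cells, 19686 were kept and 240 met the rule. The 6 WT1, 25 WT2, 28 WT3, 94 WT4 and 15 WT5 cells carried a wild-type (WT) label, and the 11 KO1, 8 KO2, 32 KO4 and 21 KO5 cells a *Tcf4* knockout (KO) label. Because measured values of the rule genes chose these cells, those genes are described here without a test.

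The study dissected the neocortex of littermates from breedings of mice heterozygous for a *Tcf4* allele, labelled Tcf4ex4WT/lacZ, and prepared 1 droplet library per animal. KO animals were homozygous for a lacZ and neomycin cassette placed ahead of exon 4, which removes the long isoform TCF4B while the shorter TCF4A persists, and WT littermates carried no cassette. The comparison of genotypes used the libraries WT2, WT3 and WT4 against KO4 and KO5, with 147 and 53 chosen cells. These are the libraries the study's methods describe as used: libraries with few cells were removed there (here WT1, KO1 and KO2), as was 1 WT animal with less *Tcf4* than the KO, a description that WT5 meets. That last choice rests on a measured level, and values of WT5 are therefore given beside the results.

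Radial glia are the neural stem cells of the embryonic cortex: their fibres guide migrating neurons, and Notch signalling through HES factors holds them in the progenitor state. Near birth they stop making neurons and turn to astrocytes, with SOX9 and nuclear factor I proteins taking part in that switch. Astrocytes take up glutamate, carry lipids, and supply neurons with metabolites. TCF4 is a basic helix-loop-helix (bHLH) E-protein that binds DNA at E-box motifs as a partner of proneural factors, and Id proteins block such pairing.

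Several libraries stood apart before any comparison was made. Over all kept cells, *Tcf4* averaged 12.2, 12.6 and 12.2 UMIs per 10000 in WT2 to WT4 against 9.29 and 7.59 in KO4 and KO5. The library labelled WT5, at 7.20, lay below both of these, WT1 stood at 4.61 and KO1 at 16.7, so *Tcf4* went against the label in these 3 libraries. Counting tags at the transcript end does not read the interrupted exon, and the level is no direct check of the deletion. *Actb*, the cytoplasmic actin, was at 40.5 to 64.3 in WT2, WT3, WT4 and KO1 and at 142 to 200 in WT1, WT5, KO2, KO4 and KO5. The haemoglobin limit removed 0.42% to 1.34% of the cells of WT2 to WT4, 13.9% of KO4 and 40.4% of KO5. KO5 was the only library with Y-linked transcripts. No cell barcode was shared between chosen cells of any of the 36 pairs of libraries, and 6 chosen cells had a barcode that occurred in another library. No doublet caller was applied here.

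The chosen cells of WT2 to WT4 held a median of 2240, 3523 and 4253.5 UMIs, those of KO4 and KO5 of 2441 and 2334. Their WT and KO medians averaged 3339 ± 1019 (SD, n = 3) and 2387.5 ± 75.7 (n = 2), and the difference did not exceed the spread between libraries (exact permutation test, two-sided p = 0.4, where 3 libraries against 2 cannot go below 0.1). The libraries were separate animals, and each test below took the library as the replicate. For single genes, limma, edgeR and DESeq2 also borrow variance from other genes. A small p-value of theirs therefore does not rest on that gene's own spread between animals alone.

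The chosen cells carried the transcripts of the glial name they were given, less so in KO4, KO5 and WT5. A pair of fixed lists, radial glia and astrocyte maturation genes, neither of which holds a rule gene, summed to a median of 301, 326 and 310 UMIs per 10000 in WT2 to WT4 but to 94.6 and 132 in KO4 and KO5. The genotypes did not overlap (312 ± 12.6 against 114 ± 26.8, exact permutation p = 0.1, the smallest possible), and the library labelled WT5 stood at 118. For the rule genes alone, the medians were 197, 250 and 218 in the WT libraries, 79.0 and 88.8 in KO4 and KO5, 91.9 in WT5 and 249 in KO1. KO1 thus sat with WT2 to WT4, and WT5 with KO4 and KO5. Between 40 and 60, just inside the threshold, lay 1, 1 and 8 cells of WT2 to WT4 and 12 and 6 of KO4 and KO5. Between 25 and 40, just outside it, lay 5, 2 and 8 cells of the WT libraries and 14 and 10 of KO4 and KO5, in cells that met the rest of the rule. At or above 100 were 84%, 89.3% and 79.8% of chosen WT cells and 31.2% and 42.9% of chosen KO cells.

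Transcripts of other cell types were present at different levels in the 2 genotypes. The summed projection neuron list had a median of 21.8, 14.4 and 21.8 in the chosen cells of WT2 to WT4 and of 59.99 and 52.8 in those of KO4 and KO5. The groups did not overlap (19.4 ± 4.29 against 56.4 ± 5.10, exact permutation p = 0.1, the smallest possible), and WT5 stood at 52.5. The same list summed to 13.0, 8.34 and 19.8 in endothelial cells and microglia of the WT libraries and to 48.7 and 59.4 in those of KO4 and KO5. In projection neurons, which were chosen on 2 of its genes, it ran the other way, 105, 90.5 and 100 against 80.5 and 83.8. Endothelial cells and microglia should not express neuronal genes, and their level was taken as the background of each library. Free RNA and doublets were not told apart. A UMI of *Neurod2* or *Neurod6*, 2 bHLH factors of cortical neurons, was found in 56%, 53.6% and 59.6% of chosen WT cells and in 81.2% and 76.2% of chosen KO cells. In endothelial cells and microglia it was found in 48.3%, 40% and 60% and in 85.3% and 83.3%. The median depth of these cells was 4632, 3794, 3916, 2315.5 and 2286.5 UMIs in the same order. The shares in chosen cells of WT4, KO4 and KO5 were thus at or below the background. The neuronal list sum thus differed between the genotypes of the 5 compared libraries, but over all labelled libraries it did not follow the label, with 22.6 in KO1 and 20.1 in KO2 in chosen cells, and 9.45, 12.3 and 57.8 in endothelial cells and microglia of KO1, KO2 and WT5. Its part in the results below was not tested beyond the values given beside them.

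**Figure D1:**
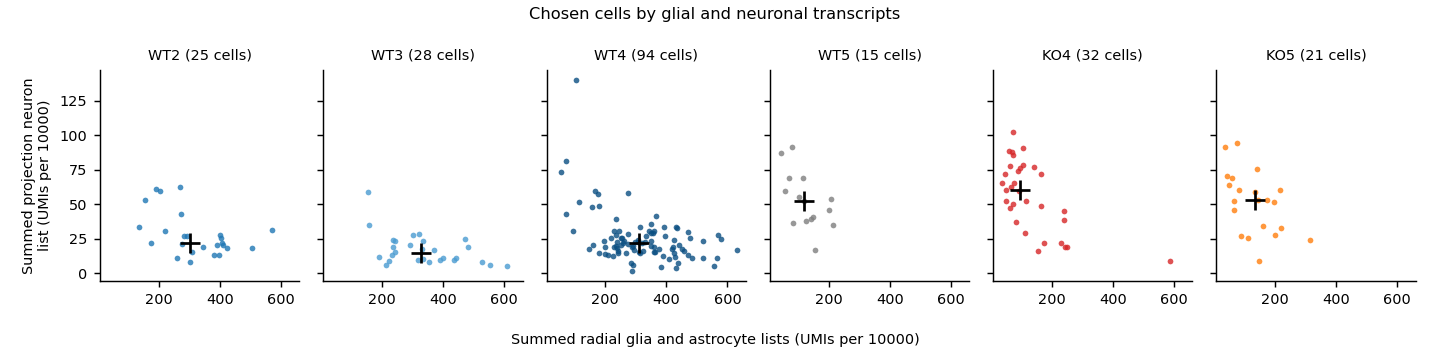
Each point is a chosen cell of 1 library, placed by its summed radial glia and astrocyte genes (horizontal axis, UMIs per 10000) and its summed projection neuron genes (vertical axis, UMIs per 10000), with a cross at the library's medians. Medians of WT2, WT3 and WT4 lie between 301 and 326 on the glial axis, those of WT5, KO4 and KO5 between 94.6 and 132 and higher on the neuronal axis.

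Markers of other non-neuronal cells were low, but endothelial and pericyte genes in chosen cells of KO5 lay above the 2.23 of all its kept cells. Endothelial and pericyte genes summed to 0.468, 0.182 and 0.843 in chosen cells of WT2 to WT4 and to 0.167 and 3.55 in those of KO4 and KO5, against 106, 102, 62.5, 48.0 and 37.2 in the endothelial cells and microglia of the same libraries. *Cldn5*, the tight junction protein of brain endothelium, was at 0 in WT2, WT3, WT4 and KO4 and at 1.62 in KO5. Microglial genes summed to at most 1.03 and oligodendrocyte lineage genes to at most 0.841 in any of the 5 libraries. Ependymal and choroid plexus genes summed to 0.312, 0.718 and 1.56 in WT2 to WT4 and to 0.211 and 0.228 in KO4 and KO5. Only 1 of them was tested between the genotypes, and it was called lower in KO by edgeR but not by limma or DESeq2.

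The rule genes themselves stood well above their levels in the remaining cells. *Slc1a3*, the glutamate transporter GLAST, averaged 14.1, 13.5 and 11.4 UMIs per 10000 in the chosen cells of WT2 to WT4, 7.72 and 5.99 in KO4 and KO5, and 0.716 to 1.16 in all other kept cells of these libraries. *Fabp7*, the fatty acid carrier of radial glia, averaged 204, 264 and 209 and then 86.8 and 93.5, against 12.8 to 15.6 in other cells. *Aldoc*, the glycolytic aldolase of astrocytes, averaged 17.9, 24.3 and 15.4 and then 6.20 and 7.29, against 0.5998 to 0.777. *Fabp7* was the most abundant of the 3 in each library.

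Genes that the rule did not name were ranked by their lowest ratio, over the 5 libraries, of the level in chosen cells to that in all other kept cells. Of 934 genes with a sufficient level, 42 had a lowest ratio above 2 and 7 above 5. *Slco1c1*, a thyroid hormone transporter of astrocytes and brain endothelium, led with ratios of 6.65, 10.0 and 11.9 in WT2 to WT4 and 7.15 and 8.04 in KO4 and KO5. *Apoe*, the lipid carrier secreted by astrocytes, followed with 15.8, 23.7 and 15.9 and then 8.43 and 6.49. *Mt3*, a zinc-binding metallothionein of brain, had 13.0, 18.1 and 15.4 and then 6.21 and 6.58. These 3 genes were enriched in every library, and the KO libraries had the lowest ratio for *Apoe* and *Mt3*. *Plpp3* (a lipid phosphatase), *Pdpn* (podoplanin), *Fgfbp3* (a fibroblast growth factor carrier) and *Notch2* (a Notch receptor) completed the 7 above 5. Among the 19 of the 20 leading genes described here were also *Hes5*, the Notch target, *Vim*, the intermediate filament of radial glia, *Ednrb*, the endothelin receptor, *Dbi*, an acyl-CoA-binding protein, and *Sox9*. For 15 of these 19 genes, both KO ratios lay below each of the WT ratios. The same count was not made over all 934 ranked genes. For levels, which are not ratios, both KO libraries lay below each WT library in 23.3% of the 3818 genes tested. *Sox9*, a transcription factor of the gliogenic switch, was an exception, with 3.87, 4.84 and 5.28 in the WT libraries and 2.99 and 5.24 in KO4 and KO5. *Sparc*, a matrix glycoprotein, was another, with 3.21, 8.24 and 7.33 and then 4.85 and 6.17. The cells were chosen on *Slc1a3*, *Fabp7* and *Aldoc*, and these ratios carry no test.

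**Figure D2:**
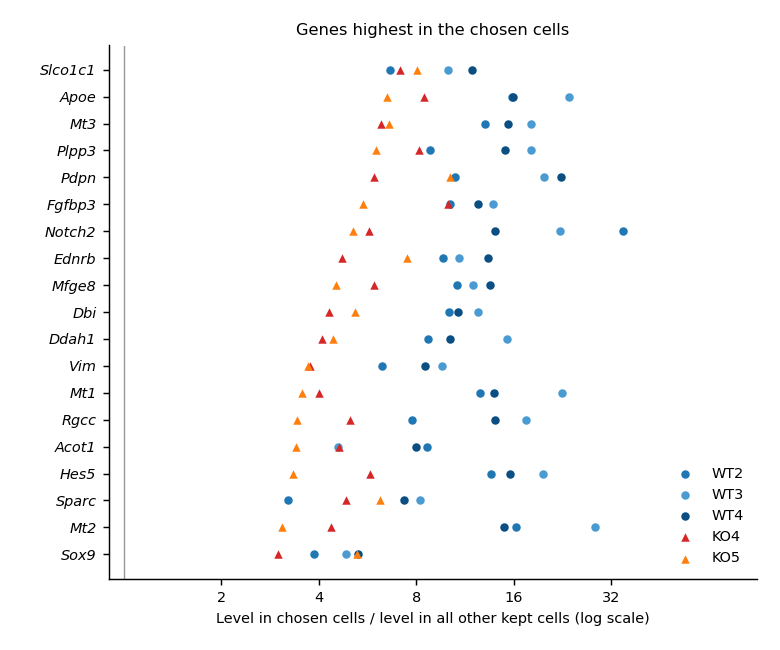
The ratio of the mean level in chosen cells to that in all other kept cells (horizontal log axis) is plotted for 19 of the 20 genes with the largest lowest ratio, 1 point per library, circles for WT and triangles for KO. All points lie to the right of 1, and for 15 of the 19 genes both triangles lie to the left of each circle. That count was not made over all ranked genes.

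Within a library, the chosen cells varied in how far astrocyte genes were detected. Each cell was thinned to 1700 UMIs to make depths equal. *Mt3* was then found in 100%, 100% and 91.5% of the cells of WT2 to WT4 and in 84.4% and 90.5% of those of KO4 and KO5 (100%, 100%, 96.8%, 90.6% and 90.5% before thinning), and in 6.67% to 37.5% of endothelial cells and microglia. *Aqp4*, the water channel of astrocyte endfeet, was found in 20%, 21.4% and 10.6% of WT and 3.12% and 0% of KO cells, where 0 of 21 cells of KO5 allows up to 14.3% (20%, 25%, 28.7%, 6.25% and 0% before thinning). *Gfap*, the filament of mature astrocytes, was found in 4%, 3.57% and 8.51% of WT and 3.12% and 0% of KO cells. Neither had a UMI in the thinned endothelial cells and microglia, and most of the chosen cells had none. *Hes5* was found in 60%, 42.9% and 57.4% of WT and 21.9% and 19.05% of KO cells (72%, 75%, 83%, 37.5% and 23.8% before thinning), against at most 3.92% of endothelial cells and microglia.

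Regional markers were read after the same thinning. *Emx2*, a homeobox factor of the dorsal forebrain, was found in 12%, 10.7% and 14.9% of chosen cells of WT2 to WT4 and in 3.12% and 14.3% of those of KO4 and KO5 (16%, 21.4%, 34%, 6.25% and 14.3% before thinning), against 0% to 2.86% of endothelial cells and microglia. *Gsx2*, a factor of ventral forebrain progenitors, was found in 8%, 10.7% and 4.26% of WT cells and in none of KO4 and KO5 (8%, 10.7% and 10.6% of WT cells before thinning), against 0% of WT and 0.98% and 4.17% of KO endothelial cells and microglia. A count of 0 allows up to 9.38% of the cells of KO4 and 14.3% of those of KO5, and the *Gsx2* shares of the genotypes were not tested. *Dlx1*, another ventral factor, was found in 3.19% of chosen cells of WT4 (3 cells) and in none of WT2, WT3, KO4 and KO5. Before thinning it was in 9.57% of those of WT4 and 4.76% of those of KO5. In endothelial cells and microglia it was found in 6.90%, 13.3% and 1.90% in WT2 to WT4 and in 6.86% and 4.17% in KO4 and KO5. After thinning, the share in chosen cells thus lay above this background in WT4 alone, and the difference was not tested.

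Cycling cells past the same thresholds, with a UMI of *Top2a* or *Mki67*, numbered 21, 35 and 45 in WT2 to WT4 and 20 in KO4. Radial glia genes summed to 232, 251 and 204 UMIs per 10000 in the non-cycling cells and 193, 183 and 185 in the cycling cells of the WT libraries, and to 97.1 and 127 in KO4. Astrocyte genes summed to 86.9, 84.6 and 114 against 60.1, 43.1 and 78.8, and to 33.6 against 28.4 in KO4, higher in the non-cycling cells of all 4 libraries. *Apoe*, named after its values were seen, led the genes higher in non-cycling cells, by 0.81 to 1.58 on the log2 scale. These differences follow a rule that used cycle genes and are given as description.

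Chosen cells made up a smaller share in both KO libraries than in any of the 3 WT libraries. They were 2.11% (95% exact binomial interval 1.37 to 3.10), 1.73% (1.15 to 2.49) and 1.52% (1.23 to 1.86) of kept cells in WT2 to WT4 and 0.762% (0.522 to 1.07) and 0.912% (0.565 to 1.39) in KO4 and KO5. The intervals cover counting error only. WT libraries averaged 1.79% ± 0.298 (SD, n = 3) and KO libraries 0.837% ± 0.106 (n = 2), a difference of -0.951 percentage points with no overlap (exact permutation p = 0.1, two-sided, the smallest possible). The share was 0.413% in the library labelled WT5, and 4.72%, 3.31% and 6.78% in WT1, KO1 and KO2, where only 127, 332 and 118 cells were kept. With all 9 libraries the difference turned to 0.841 points, higher in KO (permutation p = 0.603). With a stricter haemoglobin limit of 0.2%, which left 1 chosen cell among 16 in KO5, it was 1.97 points, also higher in KO. A share can be moved by cells of other types lost or gained in dissociation, which cannot be told apart here from a change in glial number. It also counts cells past a threshold on the rule genes, which were themselves lower in chosen cells of KO4 and KO5. The permutation test therefore cannot separate fewer glia from lower levels of those genes. With the threshold at 25 the difference was -0.793 points (exact permutation p = 0.2), and at 60 it was -1.13 points (p = 0.1).

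Levels were compared between KO and WT by limma on the log2 of each library's mean level over its chosen cells (UMIs per 10000, plus 1), a scale that understates the change of low genes. Of 3818 genes tested, 129 (3.38%) were higher and 200 (5.24%) lower in KO at an adjusted p under 0.05, and the median difference of all genes was -0.09. Levels of the 2 genotypes did not overlap for 519 genes higher and 889 lower in KO (13.6% and 23.3%). edgeR's quasi-likelihood test on summed UMIs called 245 genes, 138 higher and 107 lower, among them 211 of the 329 in the same direction. DESeq2 called 105, 103 of them shared in the same direction. When WT5 was added as a WT library limma called 0 genes, with 391 at an unadjusted p under 0.05. WT5 lay above all of WT2 to WT4 for 115 of the 129 genes called higher (89.1%, against 23.5% of all genes tested). It lay below all of them for 178 of the 200 called lower (89.0%, against 44.4%). KO1 did so for 49 (38.0%, against 26.3%) and 126 (63.0%, against 46.3%). When chosen cells with a *Neurod2* or *Neurod6* UMI were left out, which kept 11, 13 and 38 WT and 6 and 5 KO cells, 8 genes were called, and in cells with a rule sum of at least 100, 49 were.

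*Tcf4* itself averaged 8.92, 7.01 and 8.79 UMIs per 10000 in the chosen cells of WT2 to WT4 and 7.28 and 6.33 in those of KO4 and KO5. The ranges overlapped, and the log2 difference of -0.24 (SE 0.22) did not pass the test (limma adjusted p = 0.579). In projection neurons of the same libraries it averaged 14.2, 14.2 and 14.5 against 9.90 and 7.26, without overlap. Over all labelled libraries neither kind of cell separated the labels. In chosen cells *Tcf4* stood at 7.71 in WT5, 4.67 in WT1, 7.26 in KO1 and 9.47 in KO2. In projection neurons it stood at 7.28, 5.40, 21.9 and 14.5 in the same order.

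The 12 largest falls included 3 genes of the astrocyte maturation list (*Sparcl1*, *Clu* and *Pla2g7*), 2 of glial guidance and matrix (*Ptprz1* and *Ptn*) and 1 of the Notch pathway (*Hes5*). *Gstm1*, a glutathione transferase of astrocytes, averaged 4.37, 4.43 and 3.69 UMIs per 10000 in WT2 to WT4 against 0.934 and 0 in KO4 and KO5 (log2 difference -1.89, SE 0.26, limma adjusted p = 1.17e-10). *Mmd2*, a membrane protein of astrocyte progenitors, averaged 5.03, 5.79 and 5.02 against 0.590 and 0.857 (-1.87, SE 0.25, adjusted p = 6.19e-11). *Sparcl1*, the secreted astrocyte protein hevin, averaged 3.64, 5.98 and 4.65 against 0.822 and 0.469 (-1.80, SE 0.25, adjusted p = 5.52e-10). For each of these 3, WT5 lay nearer to KO, at 0.673, 1.73 and 0.844. No overlap between the genotypes was a condition for naming the largest falls and rises, so its absence in them is no result. *Gstm1* lies on GRCm38 chromosome 3 from 108012255 to 108017973, on the minus strand. *Ptprz1*, the receptor phosphatase of radial glia, had the largest log2 difference, -1.94 (SE 0.41), with 18.3, 29.1 and 27.7 in WT and 11.001 and 2.69 in KO. Its adjusted p was 0.0146 in limma, 4.49e-07 in edgeR and 0.132 in DESeq2. *Ptn*, pleiotrophin, a ligand of that receptor, averaged 41.4, 49.2 and 28.6 against 16.01 and 7.71 (-1.71, adjusted p = 8.67e-15).

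The other falls were as follows. *Cpe*, carboxypeptidase E, averaged 12.7, 16.02 and 8.96 against 4.21 and 2.21 (log2 difference -1.70, limma adjusted p = 1.97e-11). *Clu*, the secreted chaperone clusterin, averaged 4.08, 3.27 and 4.81 against 1.30 and 0.175 (-1.61, adjusted p = 7.90e-08). The tetraspanin *Cd9* averaged 6.23, 9.60 and 6.42 against 1.57 and 1.65 (-1.67, adjusted p = 5.77e-10), and its relative *Cd81* 9.32, 10.5 and 8.46 against 3.60 and 1.86 (-1.52, adjusted p = 4.34e-09). That none of these 4 genes overlapped between the genotypes follows from how they were named. *Hes5*, the Notch-induced bHLH repressor, averaged 6.15, 5.50 and 8.01 against 1.997 and 1.16 (-1.56, adjusted p = 1.76e-08), and 0.6002 in WT5. *Tst*, a mitochondrial sulphur transferase, fell by 1.60 and *Pla2g7*, a secreted lipase, by 1.51 on the log2 scale.

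The windows of 250 bases before the start site were searched for 2 E-box forms, CAGCTG and CAGGTG, the latter also read as CACCTG on the other strand (RefSeq, GRCm38.p6). Of 32851 such windows, 27.7% held either form, and of the 3810 windows of genes tested, 22.9%. Among the 12 named falls, 8 genes had 9 windows, 3 of which held a form. Among the 12 named rises, 6 genes had 9 windows, 3 of which held one. The windows of *Cd9* (chr6:125494761-125495010, minus strand), *Hes5* (chr4:154960673-154960922, plus strand) and *Cd81* (chr7:143052500-143052749, plus strand) are shown because they are the named falls with a match, written from far to near the start site with each match in capitals.
Cd9: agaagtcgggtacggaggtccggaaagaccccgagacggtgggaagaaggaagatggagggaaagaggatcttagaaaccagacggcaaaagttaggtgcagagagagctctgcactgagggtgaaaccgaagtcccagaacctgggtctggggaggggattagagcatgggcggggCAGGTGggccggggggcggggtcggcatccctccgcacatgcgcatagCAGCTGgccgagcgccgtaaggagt
Hes5: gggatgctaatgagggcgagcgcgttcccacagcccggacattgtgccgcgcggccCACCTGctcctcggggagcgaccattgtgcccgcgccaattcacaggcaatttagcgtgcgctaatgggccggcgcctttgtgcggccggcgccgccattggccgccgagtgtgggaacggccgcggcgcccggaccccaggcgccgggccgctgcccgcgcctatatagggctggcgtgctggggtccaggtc
Cd81: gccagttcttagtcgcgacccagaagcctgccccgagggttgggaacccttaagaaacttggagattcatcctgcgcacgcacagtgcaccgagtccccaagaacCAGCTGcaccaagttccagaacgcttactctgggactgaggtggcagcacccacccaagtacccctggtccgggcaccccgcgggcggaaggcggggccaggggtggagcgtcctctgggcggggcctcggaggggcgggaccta
A match is a string of letters, and no binding was measured.

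The 12 largest rises included *Stmn2* of the projection neuron list and 3 genes, *Actb*, *Pam* and *Ncam1*, of a list raised in upper-layer neurons of these libraries, chosen on these samples. *Actb*, the actin of the cytoplasm, on GRCm38 chromosome 5 from 142903115 to 142906754, averaged 34.5, 48.3 and 27.6 UMIs per 10000 in chosen cells of WT2 to WT4 and 169 and 172 in those of KO4 and KO5 (log2 difference 2.22, SE 0.18, limma adjusted p = 1.34e-32). It was at 179 in WT5, beside the KO libraries, and at 41.5 in KO1, among the WT libraries. *Pam*, an enzyme that matures neuropeptides, averaged 0.119, 0.967 and 1.004 against 4.48 and 5.68 (1.88, SE 0.26, adjusted p = 1.72e-10). *Ncam1*, the neural cell adhesion molecule, averaged 4.002, 2.36 and 3.44 against 14.7 and 10.7 (1.69, SE 0.23, adjusted p = 6.19e-11). *Stmn2*, a microtubule regulator of growing axons, averaged 4.99, 2.49 and 6.33 against 15.9 and 13.7 (1.56, SE 0.22, adjusted p = 5.52e-10). Being higher in both KO libraries than in any of WT2 to WT4 was a condition for naming these genes, and WT5 lay nearer to KO for all 4.

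*Sox11* and *Sox4* encode transcription factors of differentiating neurons. *Sox11* averaged 6.57, 7.19 and 8.48 against 25.6 and 21.7 (log2 difference 1.55, limma adjusted p = 8.10e-11), and *Sox4* 3.12, 2.001 and 4.99 against 11.0004 and 11.9 (1.57, adjusted p = 1.64e-09). *Mef2c*, a factor of neuronal maturation, averaged 1.53, 1.43 and 2.2995 against 7.96 and 5.04, and the corepressor *Runx1t1* 0.361, 0.252 and 0.578 against 3.25 and 2.28. For both the log2 difference was 1.43. *Igfbpl1*, of newborn neurons, averaged 2.55, 3.07 and 2.51 against 8.06 and 9.12 (1.37, adjusted p = 7.01e-07). *Cdkn1b*, the cell cycle inhibitor p27, rose by 1.46, *Dpf1*, a neuronal chromatin remodelling subunit, by 1.31, and *Dpysl2*, an axon growth protein, by 1.30.

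**Figure D3:**
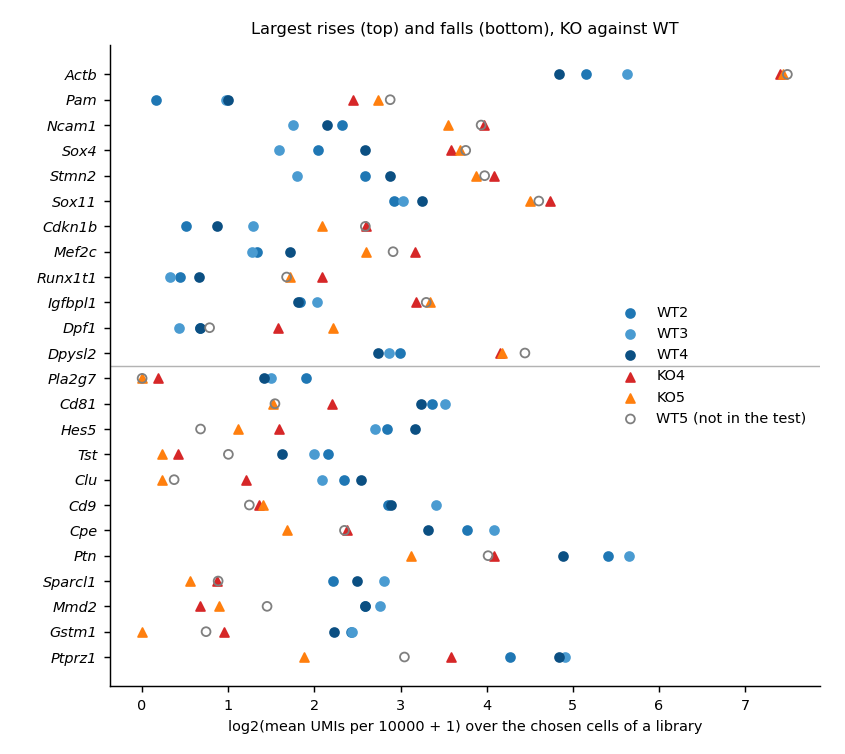
Levels of the 12 largest rises and 12 largest falls are plotted as log2 of mean UMIs per 10000 plus 1 over the chosen cells (horizontal axis), 1 point per library, with circles for WT2 to WT4, triangles for KO4 and KO5 and open circles for the library labelled WT5, which was not in the test. Circles and triangles do not overlap for any of the 24 genes, which was a condition for naming them. The open circles lie mostly among the triangles.

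Of the genes called, 14 higher and 69 lower had every library of the low group below the filter of 0.5, so that they were tested only through the group where they are high, and 246 did not. *Tst* and *Pla2g7* were among the former. Over all 3818 genes tested, 3.38% were called higher and 5.24% lower, and the count of each list below is to be read beside these shares. By role, of 20 radial glia genes listed, 19 were tested, 14 were lower (2 of them below the filter in both KO libraries), 0 higher, and the median was -0.83 against -0.09 over all genes. *Tnc*, tenascin C of the stem cell matrix, averaged 5.07, 5.65 and 5.65 in WT2, WT3 and WT4 against 2.47 and 0.6251 in KO4 and KO5 (log2 difference -1.44, SE 0.24, limma adjusted p = 4.49e-07). *Mfge8*, a secreted phagocytic bridge protein, averaged 8.21, 7.78 and 7.14 against 2.34 and 1.87 (-1.49, adjusted p = 2.90e-08). *Phgdh*, the first enzyme of serine synthesis, averaged 5.58, 7.64 and 6.55 against 1.95 and 1.61 (-1.44, adjusted p = 2.19e-07). *Pax6*, the progenitor transcription factor, averaged 2.696, 2.61 and 2.15 against 1.07 and 1.93 and did not pass (-0.50, adjusted p = 0.235). *Dbi* averaged 99.3, 107 and 84.7 against 40.5 and 52.2 (-1.06, adjusted p = 2.62e-07). The list holds no rule gene. DESeq2 called 6 of its genes, and limma 9 without KO4, 9 without KO5 and 8 without WT3. In cells with a rule sum of at least 100 the list's median was -0.63 with 3 genes called lower, and without cells holding a *Neurod2* or *Neurod6* UMI it was -0.91 with 1. With WT5 added it was -0.67 with 0 called.

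Of 25 astrocyte maturation genes, 21 were tested, 14 were lower (5 of them below the filter in both KO libraries) and 0 higher, with a median of -0.83. *Apoe* averaged 22.2, 18.9 and 32.2 in WT2 to WT4, 9.41 and 8.15 in KO4 and KO5, 5.64 in WT5 and 0.929 in KO1 (-1.35, limma adjusted p = 7.16e-09). *Cst3*, the protease inhibitor cystatin C, averaged 24.1, 28.0 and 34.0 against 11.6 and 8.06 (-1.46, adjusted p = 1.17e-10). All 3 metallothioneins tested were lower in limma, but 1 without WT2 or without KO5, and 0 by DESeq2 or at a rule sum of 60. *Mt3* averaged 40.9, 39.4 and 26.1 against 16.4 and 22.8 (-0.82, SE 0.19, adjusted p = 0.000928), with 14.9 in WT5 and 68.1 in KO1. *Mt1* averaged 9.06, 11.5 and 8.52 against 5.28 and 3.52 (-0.99, adjusted p = 0.000368). The astrocyte count was 9 with DESeq2, 9 without WT3, 6 at a haemoglobin limit of 0.2%, 1 without *Neurod2* or *Neurod6* UMIs and 0 with WT5. In cells with a rule sum of at least 100, 3 astrocyte genes and 0 metallothioneins were called, and the *Mt3* difference was -0.27 (adjusted p = 0.59).

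Of 18 tested genes of cholesterol synthesis and lipid transport, 6 were lower and 0 higher, with a median of -0.55. The lower count was 3 without WT3, 3 without KO5, 2 with DESeq2, 1 at a rule sum of 100 and 0 without *Neurod2* or *Neurod6* UMIs. *Hmgcs1*, an early enzyme of cholesterol synthesis, averaged 7.34, 12.6 and 8.24 against 3.71 and 3.81 (-1.09, limma adjusted p = 6.31e-05). *Fabp5*, another fatty acid carrier, averaged 14.2, 9.31 and 17.6 against 13.9 and 14.3 and did not pass (0.08, adjusted p = 0.875). Of 15 guidance and matrix genes of glia, 5 were lower and 0 higher, with a median of -0.48. The lower count was 3 without WT3, 2 without KO5, 2 with DESeq2, 2 at a rule sum of 100 and 0 without *Neurod2* or *Neurod6* UMIs.

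Of 11 Notch pathway genes tested, 3 were lower and 0 higher (5.24% and 3.38% over all genes), with a median of -0.42. Of the 3, 2 lay below the filter in both KO libraries. The lower count was 1 without WT3, without WT4, with DESeq2 or after thinning, and edgeR called 1 gene higher. The receptor *Notch1* averaged 0.704, 1.02 and 1.66 in WT2 to WT4 against 0.371 and 0 in KO4 and KO5, and was tested only through its WT levels. *Notch2* averaged 3.59, 5.44 and 1.56 against 5.41 and 4.64 and did not pass (0.51, adjusted p = 0.183). Of 10 gliogenic transcription factors tested, 1 was higher and 2 were lower, with a median of -0.22. *Nfia*, which promotes gliogenesis, was the one higher, at 4.11, 6.71 and 4.97 against 11.2 and 13.4, with WT5 at 20.6 (1.11, adjusted p = 3.87e-05). Its relative *Nfib* averaged 7.12, 7.72 and 7.14 against 7.09 and 9.19 (0.13, adjusted p = 0.802). *Zbtb20*, a repressor with a part in astrocyte formation, averaged 8.10, 7.04 and 9.58 against 3.50 and 2.84 (-1.14, adjusted p = 3.18e-05), and *Hes5* was the other lower one.

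Of the 3 E-protein genes, *Tcf4* included, limma, edgeR and DESeq2 each called 0, and 1 had an unadjusted p under 0.05 in limma. Of 3 Id genes, which encode inhibitors of E-proteins, *Id3* was lower, at 6.20, 3.87 and 8.73 against 1.94 and 1.11 (-1.49, limma adjusted p = 1.35e-07), and *Id2*, at 4.88, 4.54 and 3.71 against 4.98 and 2.81, did not pass (-0.17, adjusted p = 0.745). Of 4 proneural and neuronal bHLH genes, 3 were higher (1 at a rule sum of 100). *Neurod6* averaged 2.84, 2.20 and 1.45 against 7.36 and 5.82 (1.28, adjusted p = 1.21e-05), and *Neurod2* 1.07, 0.759 and 1.63 against 3.73 and 4.25 (1.23, adjusted p = 0.000125). *Neurog2*, the proneural factor of dorsal progenitors, averaged 0.453, 0.266 and 0.144 against 0.786 and 1.64, and was tested only through its KO levels. *Neurod6* in endothelial cells and microglia averaged 1.24, 0.645 and 2.19 against 5.60 and 5.09, below its levels in the chosen cells of WT2 and WT3 and above that of WT4. After thinning to 1700 UMIs it was found in 32%, 32.1% and 15.96% of chosen WT cells and 50% and 66.7% of chosen KO cells (44%, 46.4%, 38.3%, 65.6% and 71.4% before thinning), and in 10.3%, 13.3%, 31.4%, 55.9% and 66.7% of endothelial cells and microglia in the same order.

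Of 9 projection neuron genes tested, 5 were higher and 0 lower (3.38% and 5.24% over all genes), with a median of 0.75, and 2 were higher at a rule sum of 100. *Tubb3*, the neuronal tubulin, averaged 7.19, 4.85 and 5.86 against 13.9 and 12.2 (1.02, limma adjusted p = 0.000178). Of 7 cell cycle genes tested 1 was higher, *Ube2c*, a mitotic ubiquitin ligase component, at 0.167, 0 and 0.299 against 1.72 and 2.37, which was tested only through its KO levels, and 0 without KO4 or without KO5. Ribosomal protein genes were higher for 25 and lower for 0 of 84 tested, with a median of 0.37, and the higher count was 4 to 34 with 1 library left out (9 without WT2, 5 without WT3, 6 without KO4, 4 without KO5). limma called 0 of 5 dorsal forebrain and 0 of 12 mitochondrially encoded genes (1 and 3 at an unadjusted p under 0.05; edgeR and DESeq2 called 0 and 1), with medians of -0.25 and 0.13. No gene of the ventral forebrain, cortical hem, oligodendrocyte, endothelial or microglial lists was abundant enough to be tested. The 7 listed haemoglobin genes were used by the rule and were therefore not tested. Haemoglobin genes made up a median of 0.0534%, 0.0632% and 0.0364% of UMIs in chosen cells of WT2 to WT4. In those of KO4 and KO5 the median was 0.157% and 0.396%. Of 5 genes raised in upper-layer neurons in earlier results of these libraries all 5 were higher, and since those were chosen on these samples they are not independent evidence. Of 15 lowered there, 3 were higher and 1 lower. Of 3 intermediate progenitor genes only *Neurog2* was higher. Of 3 interneuron genes 2 were higher (0 without WT3 and 1 without any other library), and of 7 immediate early genes 2 were lower (1 without WT2, WT3, KO4 or KO5).

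**Figure D4:**
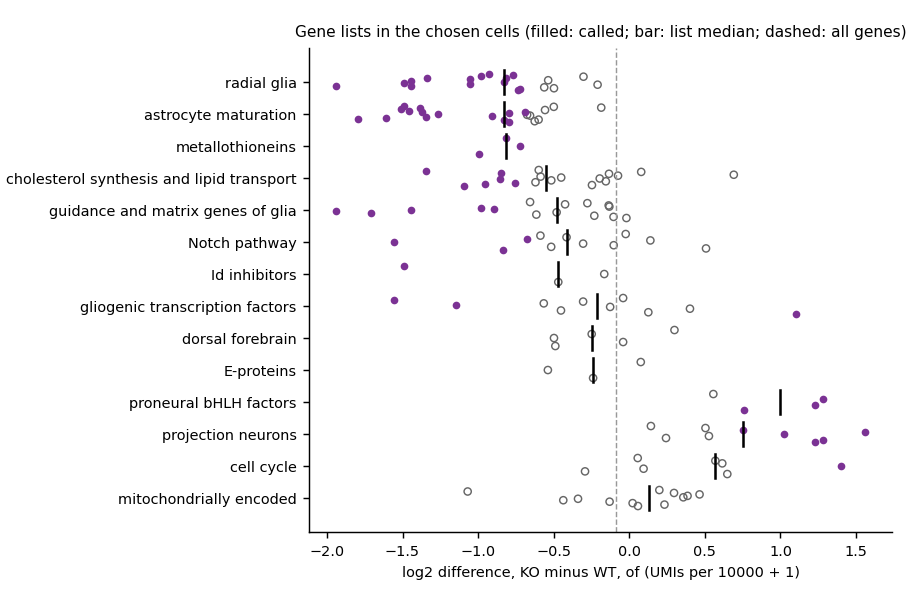
Each point is 1 gene of a list, placed by its log2 difference KO minus WT of UMIs per 10000 plus 1 in the chosen cells (horizontal axis), filled where the adjusted p was under 0.05, with a bar at the list's median and a dashed line at the median of all 3818 genes, -0.09. Radial glia and astrocyte genes centre on -0.83, and projection neuron genes on 0.75.

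The genotype difference in the chosen cells was then tested against that in projection neurons of the same libraries. Of the genes tested, 113 (2.96%) had a more positive and 138 (3.61%) a more negative KO minus WT difference in the chosen cells. *Neurod2* and *Neurod6* are among the former, but their UMIs chose the neurons, so for them this is no test. Among the genes called were 15 of 19 radial glia and 14 of 21 astrocyte genes tested, all more negative in the chosen cells. Of 9 projection neuron and 4 proneural genes tested, 4 and 2 were more positive, leaving out *Neurod2* and *Neurod6*. The 2 proneural genes include *Neurog2*, which was tested only through its KO levels. *Igfbpl1* differed most, by 2.26 (SE 0.23, limma adjusted p = 1.60e-06), since in neurons it averaged 16.2, 23.4 and 17.1 in WT2 to WT4 and 10.3 and 8.95 in KO4 and KO5. *Sox11* differed by 1.66 (adjusted p = 0.000127), with a neuronal log2 difference of -0.10. *Cd24a*, a surface protein of newborn neurons, averaged 4.598, 2.79 and 4.36 against 11.8 and 7.07 in the chosen cells and 21.8, 24.6 and 23.0 against 15.3 and 13.3 in neurons (difference 1.73, adjusted p = 0.000221). These 3 genes were higher in the chosen cells of KO, and the values in neurons were lower in KO or near 0 in difference. In endothelial cells and microglia they were also higher in KO, *Igfbpl1* with 0.693, 1.61 and 4.27 against 6.13 and 7.61 and *Cd24a* with 1.90, 2.65 and 5.35 against 8.91 and 10.1.

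Among glial genes, the difference from neurons was -1.98 for *Gstm1* (limma adjusted p = 0.000176), -2.07 for *Sparcl1* (adjusted p = 3.15e-05) and -2.08 for *Apoe*. Among the marker genes it was -1.67 for *Tnc* (adjusted p = 0.00114) and -1.62 for *Mt3* (adjusted p = 0.00189). *Mt3* in neurons had a log2 difference of 0.80 and *Dbi* of 0.97, opposite in sign to those in the chosen cells. After thinning, 11.5% to 17.6% of WT neurons and 27.1% to 39.2% of KO neurons held *Mt3*. The background, read in endothelial cells and microglia, rose too, from 6.67% to 17.2% in WT to 17.6% to 37.5% in KO. The -1.62 for *Mt3* thus includes a rise in neurons that the background shared, and regulation of *Mt3* in neurons was not tested. *Sparcl1*, also made by endothelial cells, averaged 12.5, 15.2 and 6.76 in endothelial cells and microglia of WT and 3.64 and 3.11 in those of KO. *Hes5*, *Clu*, *Tst* and *Pla2g7* had log2 differences between -0.05 and 0.25 in both other kinds of cells. After thinning, *Hes5* was found in only 1.09% to 5.46% of projection neurons and 0% to 3.92% of endothelial cells and microglia. For *Clu* these shares were 1.30% to 3.12% and 0% to 2.94%. A fall of such scarce transcripts could hardly be seen in these cells. Most of the largest rises had positive differences in all 3 kinds of cells. Among them was *Actb*, with 2.22 in chosen cells, 1.63 in neurons and 1.72 in endothelial cells and microglia. *Nfia* had 1.11 and 1.23 in the first 2. The *Sox11* and *Stmn2* differences in endothelial cells and microglia, 1.61 and 1.59, were about those in chosen cells, 1.55 and 1.56. Those in neurons were -0.10 and 0.03.

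**Figure D5:**
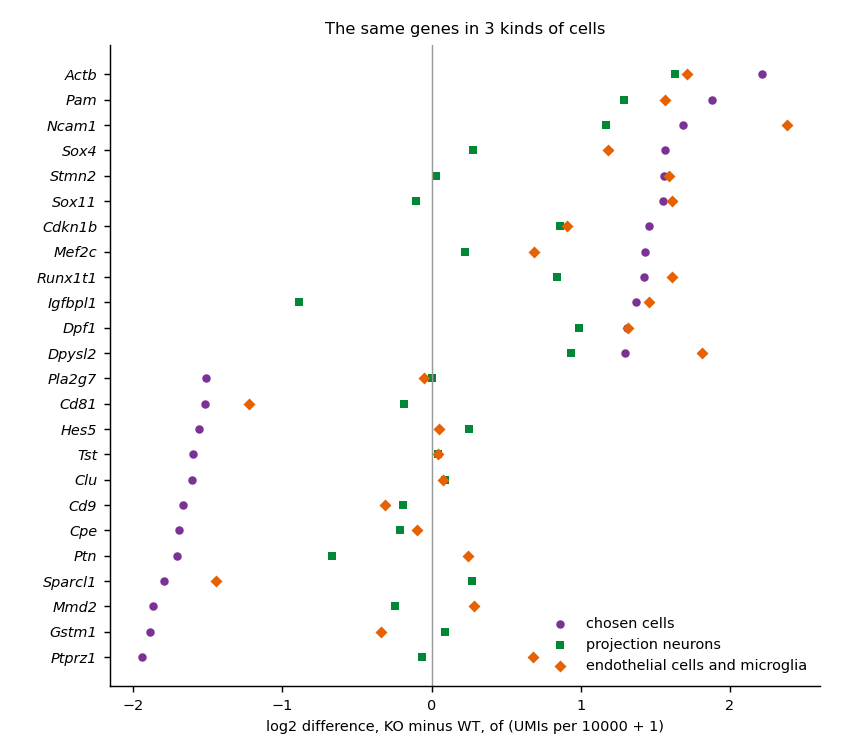
The log2 difference KO minus WT (horizontal axis, UMIs per 10000 plus 1) of the 24 named genes is shown in chosen cells (circles), projection neurons (squares) and endothelial cells and microglia (diamonds). Differences of the 12 falls lie between -1.94 and -1.51 in chosen cells. Elsewhere they lie mostly near 0, in cells where *Hes5* and *Clu* were scarce. Diamonds lie to the right of 0 for all 12 rises.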

How the data were processed

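The neocortex of E18.5 embryos was profiled in droplets, 1 library per animal. Reads were mapped to mm10 (GRCm38), and the submitters' processing notes name Cell Ranger 2.1.0, R 3.6.0 and Seurat 2.3.4. The authors deposited UMI counts for WT4, WT5, KO4 and KO5. For the other 5 libraries the authors deposited the natural log of 1 plus UMIs per 10000 of the cell, so the form of the files is unevenly spread over the genotypes. Whole UMIs were recovered for 100% of the logged values within 1e-06. The 9 libraries held 348105 to 29767293 UMIs. No per-sample column was left unmapped (0). Binomial intervals and floors (3 counts) cover counting error only.

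The chosen cells, the gene lists and the named genes' rule were set with earlier results of these data known. The level of a gene was its mean over a library's cells in UMIs per 10000, and genes at 0.5 or more in 2 or more libraries were tested with limma 3.58.1 (trend, robust variances) on log2(level + 1), with Benjamini-Hochberg adjustment over all of them. limma was used because only part of the files hold counts. Projection neurons had UMIs of *Neurod2* and *Neurod6* and none of *Slc1a3*, *Aldoc* and the excluded genes. Genes were named as the 12 largest rises and 12 largest falls called without overlap and with at least 50 UMIs, the 20 with the highest lowest ratio to other cells at a level of at least 1 (1 of them not reported here), up to 4 examples a list (the 2 highest in level and the 2 with the smallest p), the marker genes with *Tcf4*, and the 6 with the smallest p against neurons. *Aqp4*, *Gfap*, *Cldn5*, *Dlx1* and *Gsx2* were named outside this rule, after their values were seen. edgeR 4.0.16 and DESeq2 1.42.0 on recovered UMIs, pseudocounts of 0.5 and 2, other filters, thresholds and cell limits, thinning to 1700 UMIs and leaving out each library were alternatives. Single values were compared by exact permutation tests, two-sided. The fits were tested on simulated data.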

Additional observations from a re-analysis of the deposited data

Results flagged for a closer look

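Within the libraries of 1 label, 110 sets of values were searched for a library far from the others, and 12 had one. Such a search also finds some by chance. WT5 stood apart from the other libraries labelled WT in the chosen cells for the median neuronal list sum, at 52.5 UMIs per 10000, the median glial list sum, at 118, and the cell cycle list, at 17.4. WT5 was also far from the others for *Igfbpl1* at 8.84, *Mef2c* at 6.53, *Runx1t1* at 2.20 and *Sox4* at 12.5. WT1, with 6 chosen cells, stood apart for the gliogenic transcription factor list, at 60.9, and the Notch pathway list, at 34.3. Among the libraries labelled KO, KO4 stood apart for the immediate early and stress list, at 24.3. KO1, with 11 chosen cells, did so for the list raised in upper-layer cells earlier, at 54.2, and for *Actb*, at 41.5.

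The KO minus WT difference in the chosen cells departed from that in projection neurons for 5 genes named by the test of that difference, in log2 units by limma. It was more positive for *Igfbpl1* by 2.26, *Cd24a* by 1.73 and *Sox11* by 1.66. *Neurod6*, at 1.72, also stood out, but its UMIs chose the neurons and the value is a description. For *Sparcl1* it was -2.07 and for *Gstm1* -1.98.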

How the results depend on the processing

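Of 329 genes called between KO and WT, the count fell to 105 with DESeq2 (62 higher, 43 lower; no adjusted p for 2295 genes), 178 with a filter at 2, 174 after thinning, 141 at a rule sum of 60, 104 at a haemoglobin limit of 0.2%, 49 at a sum of 100 (added after seeing the data), and 8 without *Neurod2* or *Neurod6* UMIs. It was 0 with WT5 added and 0 over all libraries with 10 or more cells (391 and 322 genes at an unadjusted p under 0.05, limma). Leaving out 1 library gave 128 to 287, with 187 without WT2, 128 without WT3 and 132 without KO5. edgeR with TMM called 245 (138 higher, 107 lower). Over WT4, WT5, KO4 and KO5, which share numbers, 1 gene was called with the replicate block and 0 without it (184 and 143 at an unadjusted p under 0.05), and with 2 pairs the numbers are not shown to pair the libraries (correlation of deviations 0.103). Against neurons, 251 genes became 129 at a pseudocount of 0.5, 124 against all other cells, 86 after thinning, 0 over all libraries with 10 or more cells (356 at an unadjusted p under 0.05, limma), and 100 to 231 without 1 library (138 without WT3, 100 without WT4, 105 without KO5). The share difference of -0.951 points became -1.60 with cells thinned before the choice, 1.97 at a haemoglobin limit of 0.2% and 0.841 over all 9 libraries, and ran from -1.08 to -0.790 without 1 library. The difference in median UMIs, -951.3, ran from -1500.75 to -494. Over 29 named genes (the 24 rises and falls, *Cd24a*, *Neurod6*, *Mt3*, *Tnc* and *Tcf4*) and their settings, 529 values kept direction and call, 160 lost the call, and 2 turned: *Mt3* to 0.065 over all libraries with 10 or more cells and *Tcf4* to 0.24 at a haemoglobin limit of 0.2%. The cause was not tested. *Dpf1* and *Pla2g7* at a filter of 2, *Neurod6* without its UMIs and *Pla2g7* in the block could not be fitted.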
